A study of Mus musculus with 6 samples.

Results

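The clustered protocadherins are 58 isoform genes that lie side by side on mouse chromosome 18, and their mRNA was measured by RNA-seq in the vestibular sensory epithelium of mice exposed to 3,3'-iminodipropionitrile (IDPN). The members were taken by gene symbol from the 52636 genes of the count table: 14 of the alpha cluster, 22 of the beta cluster and 22 of the gamma cluster. The group was chosen by its low read counts in the IDPN libraries of this same contrast, so all member values that set IDPN against Control are given as a description. The lower and higher classes below sort members by test thresholds. Neither these classes nor their stability between fits is evidence of a change. All animals were male 129S1/SvImJ mice of 2 to 4 months with no engineered allele named. The 3 IDPN animals drank water with 30 mM IDPN, a nitrile toxic to hair cells (HCs), for 8 weeks, and the 3 Control animals drank water without it. Each library came from 1 animal, with the 2 utricles and 6 cristae pooled, so it holds HCs, supporting cells and whatever nerve, stroma and blood stayed on the dissected epithelium. The 3 Control animals share a stem in their title codes that no IDPN animal has, so the exposure and whatever that stem stands for cannot be told apart. IDPN 2 and IDPN 3 share a stem that IDPN 1 does not have, so a value that sets IDPN 1 apart from both goes with that stem as well as with the animal.

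Protocadherins of these clusters are cell-surface adhesion proteins of the cadherin superfamily. They pair within one membrane and bind the same isoforms on a facing membrane, which in the nervous system lets a neuron tell its own branches from those of other cells. Each variable isoform has its own promoter, and single neurons switch on a small and largely random set of them, whereas the C-type isoforms at the end of the alpha and gamma clusters are switched on in a regular way in many neurons. An alpha or gamma mRNA joins its own large first exon to constant exons that all isoforms of that cluster share and that encode a common cytoplasmic tail. A beta gene is a single coding exon with no shared tail. Promoter choice is known to depend on the insulator protein CTCF, on cohesin, which holds DNA loops, on DNA methylation and, in the alpha cluster, on antisense transcription.

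On build GRCm38 the alpha cluster runs from base 36930184 to 37187661, the beta cluster from 37264938 to 37524479 and the gamma cluster from 37661793 to 37841873, all on the forward strand. The alpha cluster holds 12 variable isoforms followed by Pcdhac1 and Pcdhac2. The gamma cluster holds 12 isoforms of type A and 7 of type B, intermixed, followed by Pcdhgc3, Pcdhgc4 and Pcdhgc5. The symbol Pcdha11 belongs to 2 gene entries, at places 10 and 11 of the alpha cluster, and both are kept apart here by place. Pcdhgb8 is annotated as a polymorphic pseudogene. Read sharing differs between the clusters. The share of a gene's 76-base windows found in no other annotated transcript had a median of 98.8% over the beta genes, 42.1% over the alpha genes and 51.8% over the gamma genes. Of the 22 beta genes 21 had at least 90% of their windows unique, and the exception was Pcdhb12 at 37.1%. Counts of alpha and gamma isoforms therefore rest in part on how the authors' counting program divided reads of the constant exons. The least separable were Pcdha4 (1.34%), Pcdhga10 (1.59%) and Pcdha11 at place 11 (2.38%), followed by Pcdhgc3 (24.4%).

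The 6 libraries held 40474800 to 43566300 estimated counts each, and counts were divided by size factors of 0.825 to 1.21 to give normalised counts. Of 17650 genes tested with DESeq2, 3.42% were called lower and 2.32% higher in IDPN, where called means a Benjamini-Hochberg adjusted p (Padj) under 0.05 and a fold change above 1.5. The edgeR quasi-likelihood test called 2.19% lower and 1.02% higher. With libraries scaled to their total counts DESeq2 called 1.28% lower and 3.64% higher, because that scaling raised the median log2 fold change of all genes by 0.25, from 0.02 to 0.27. All 3 IDPN libraries lay below all 3 Control libraries for 11.4% of the genes tested, and above them for 11.1%. Hair cell markers were present in every library, with Spp1, Myo6 and Pou4f3 at the highest normalised counts. Of 13 such markers 7 fell by DESeq2, by up to 1.21 on the log2 scale (Gfi1), 6 by edgeR and 3 after total-count scaling, and their summed level was 790799 to 1038590 normalised counts in Control and 581880 to 783781 in IDPN. Nearly all of that sum was Spp1, which was not called (DESeq2 Padj = 0.0502) and whose groups overlapped. The other 12 summed to 28395 to 32033 in Control and 20404 to 20876 in IDPN, and Myo7a among them was not called (log2 fold change 0.01, SE 0.23).

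Of the 58 members, 57 had a count in at least 1 library, 51 were tested and 50 averaged at least 10 normalised counts. DESeq2 put 24 members in the lower class against a background of 3.42%, and 1, Pcdhac2, in the higher class against 2.32%. The edgeR test put 20 of them in the lower class (background 2.19%) and none in the higher class, and total-count scaling 22 (1.28%) and 1 (3.64%). The 24 were 19 beta genes, 3 variable alpha genes and 2 gamma A genes. No gamma B gene and none of the 5 C-type isoforms was among them. All 3 IDPN libraries lay below all Control libraries for 31 members (background 11.4%) and above them for 1 (background 11.1%). Since the members were picked from this contrast, these shares carry no weight beyond describing them. In bulk tissue, fewer cells of a type and less RNA per cell cannot be told apart.

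**Figure D1:**
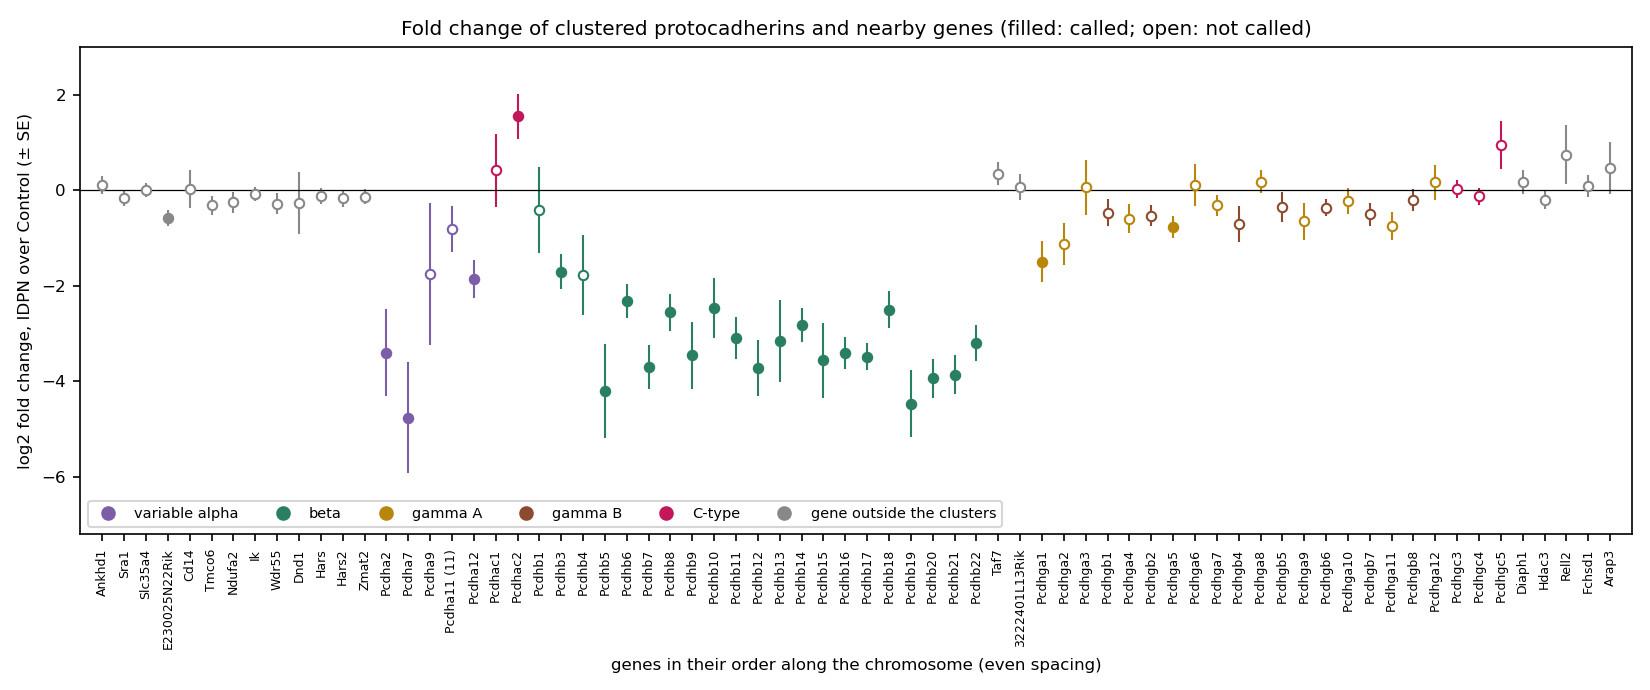
Log2 fold change of IDPN over Control (y axis, with standard error) for the 50 members with a mean of at least 10 normalised counts and the 20 tested genes outside the clusters, in chromosome order at even spacing. Beta genes from Pcdhb3 onwards lie between −1.70 and −4.46, the genes outside the clusters lie between −0.59 and 0.75, and Pcdhac2 is the filled point above 0.

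The beta cluster contributed most of the difference. The member with the highest normalised counts was Pcdhb17 (ENSMUSG00000046387.5, bases 37484795 to 37489454), which had 478, 395 and 565 normalised counts in the Control libraries (animals 1 to 3, in that order throughout) against 50.5, 49.2 and 28.9 in the IDPN libraries. The lowest Control library held several times the count of the highest IDPN library. The means were 479 ± 85.1 and 42.9 ± 12.1 (SD, n = 3 each), a log2 fold change of −3.48 (SE 0.28), or 11.2-fold lower in IDPN. Pcdhb14 was at 327, 162 and 332 in Control and 34.8, 53.2 and 28.9 in IDPN, with a log2 fold change of −2.82. Control 2 held only part of the Pcdhb14 count of the other Control animals, and was still above every IDPN animal. Pcdhb16 was at 273, 215 and 346 in Control and 22.3, 39.2 and 17.7 in IDPN (−3.41).

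Pcdhb6, nearer the start of the cluster, was at 237, 214 and 157 in Control and kept more counts in IDPN, with 62.9, 29.1 and 28.9 (log2 fold change −2.32, SE 0.36). Pcdhb20, near its end, was at 167, 227 and 228 in Control and at 15.7, 4.02 and 20.5 in IDPN (−3.94, SE 0.41). Pcdhb11 was at 146, 246 and 191 in Control and 35.6, 26.1 and 6.53 in IDPN (−3.09, SE 0.44). None of these 6 beta genes, those with the highest mean normalised counts, had overlapping groups. The IDPN animal with the highest value differed from gene to gene among them: IDPN 1 for Pcdhb17, Pcdhb6 and Pcdhb11, IDPN 2 for Pcdhb14 and Pcdhb16, and IDPN 3 for Pcdhb20.

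The lowest fold change of the cluster belonged to Pcdhb19, which was at 53.4, 64.6 and 65.8 in Control and at 2.48, 6.02 and 0 in IDPN (log2 fold change −4.46, SE 0.71). The highest belonged to Pcdhb1 (at the alpha side of the cluster), which was at 3.64, 23.1 and 21.4 in Control against 22.3, 11.0 and 2.80 after IDPN. The groups overlapped over nearly their whole range, and the log2 fold change of −0.41 had an SE of 0.90. Pcdhb2 and Pcdhb4, named after their values were seen, were the other beta genes outside the lower class. Pcdhb2 averaged 12.1 ± 3.97 over the Control animals and 2.78 ± 2.55 over the IDPN animals (SD, n = 3 each), and all IDPN values were below all Control values. Pcdhb4 had overlapping groups through IDPN 1, at 21.5 against 2.01 and 2.80 in the other IDPN animals, and it joined the lower class without IDPN 1 (log2 fold change −3.66 against −1.78 with all libraries).

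The 19 beta genes of the lower class ran from −1.70 (Pcdhb3) to −4.46. For all 19 the IDPN libraries lay below the Control libraries (background 11.4% of all genes tested). The limits that define the class make such separation likely in advance, so it adds no support. Over the 21 beta genes with a mean of at least 10 the median log2 fold change was −3.20, against 0.02 over all genes tested. The edgeR test kept 17 of the 19, the exceptions being Pcdhb10 and Pcdhb13, and 17 of the 19 stayed in the lower class without any single library. Pcdhb10 left it without Control 2 or IDPN 3, and Pcdhb13 without Control 1. The number of beta genes with at least 10 raw counts was 21, 21 and 22 in Control against 17, 12 and 10 in IDPN, at similar library totals. The part of the HC marker difference in the beta difference was not tested.

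**Figure D2:**
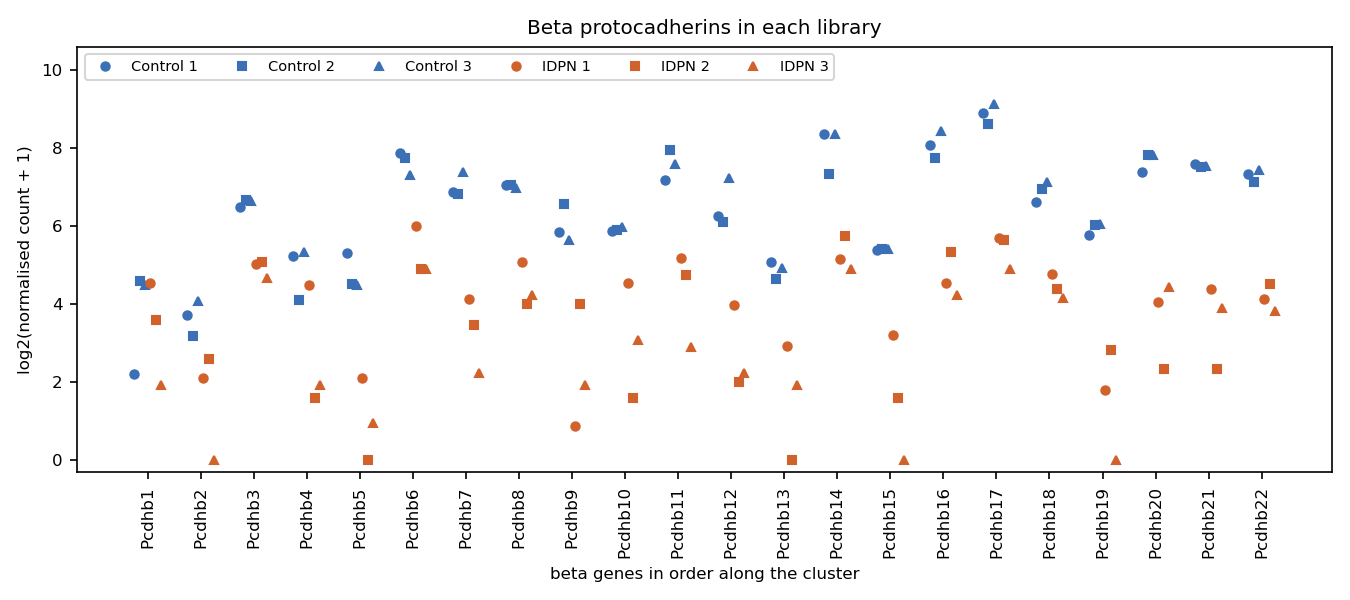
Log2 of the normalised count plus 1 (y axis) of the 22 beta genes in cluster order (x axis) for each Control (blue) and IDPN (orange) library. The colours separate for 20 of the 22 genes (IDPN below, background 11.4% of all genes tested), and mix for Pcdhb1 and Pcdhb4.

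Levels can be compared between genes only per length, here as normalised counts per kb of the longest annotated transcript. In Control, Pcdhb17 stood highest of the beta genes at 103 ± 18.3 per kb (SD, n = 3), which was 15.4% of the beta total. Pcdhb20 (58.3 ± 9.77), Pcdhb6 (54.3 ± 10.9) and Pcdhb16 (53.2 ± 12.6) came next and did not differ from each other beyond their spread. The lowest was Pcdhb2 at 4.29 ± 1.41. The whole beta cluster summed to 666 ± 55.3 per kb in Control (SD, n = 3) and to 84.3 ± 31.2 in IDPN (SD, n = 3). The order of the 22 genes in Control and in IDPN was alike but not the same, with a Spearman rho of 0.70 across genes, which share libraries and are not replicates. Pcdhb1 took 0.929% of the beta total in Control and 5.53% in IDPN, and Pcdhb3 took 3.81% and 9.28%. Pcdhb20 went the other way, from 8.75% to 4.48%.

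**Figure D3:**
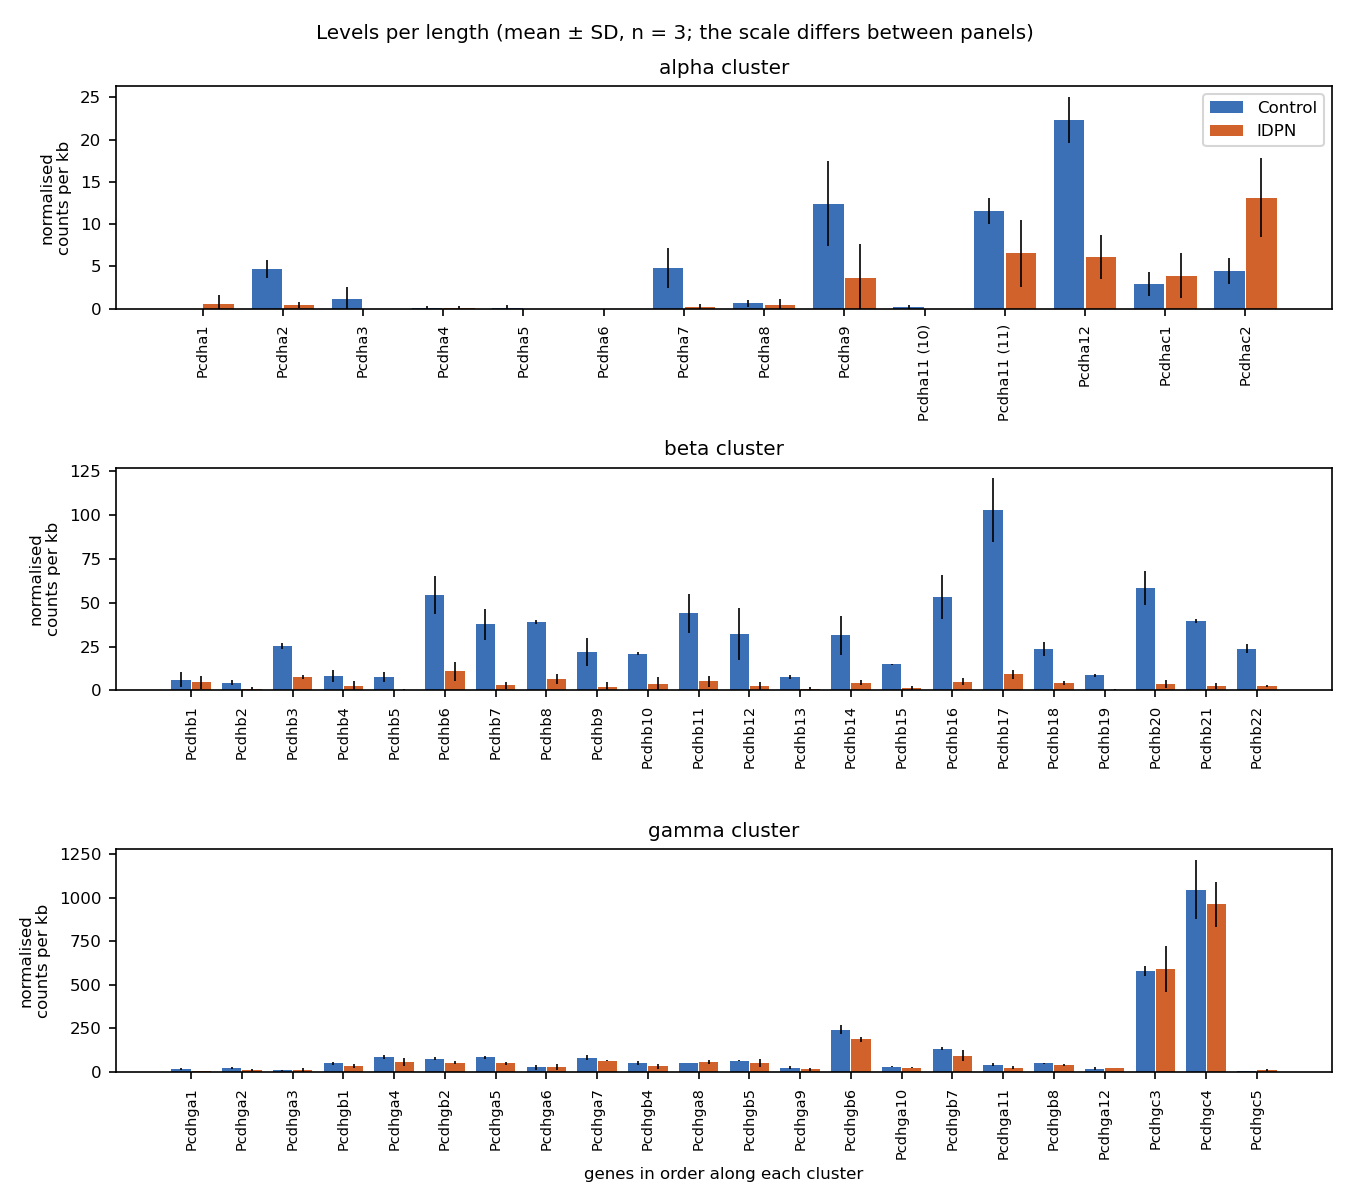
Normalised counts per kb of transcript (y axis, a different scale in each panel) for every member in cluster order, as mean and SD of 3 Control (blue) and 3 IDPN (orange) libraries. Pcdhgc4 (1046 per kb in Control) and Pcdhgc3 (579) dominate the gamma panel in both groups, and the orange bars of the beta panel are low throughout.

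The gamma cluster was the most abundant of the 3 and had the smallest differences. Pcdhgc4, a C-type isoform known to be needed for the survival of some neurons, was at 6116, 5239 and 4414 normalised counts in Control and 4128, 5426 and 4922 in IDPN. Pcdhgc3, a C-type isoform known to act on dendrite branching, was at 2873, 2609 and 2657 in Control and 2711, 3403 and 2174 in IDPN. The groups overlapped for both. Their log2 fold changes were −0.12 (SE 0.18) and 0.03 (SE 0.19), and that of Pcdhgc4 was 0.14 under total-count scaling. Pcdhgc5, the last gene of the cluster, was far less abundant, at 32.7, 27.7 and 29.4 in Control and 29.8, 93.4 and 49.5 in IDPN (log2 fold change 0.94, SE 0.50). IDPN 1 lay within the Control range of Pcdhgc5, so the highest fold change of the cluster came from the other IDPN animals.

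In Control, Pcdhgc4 reached 1046 ± 169 per kb and Pcdhgc3 579 ± 30.0, the first and second of all 58 members, with Pcdhgb6 at 243 ± 25.3 in the third place (SD, n = 3 each). The 3 C-type isoforms made up 59.7%, 59.3% and 54.9% of the gamma level per length in Control and 56.7%, 67.6% and 67.6% in IDPN. IDPN 1 lay inside the Control range of this share, and IDPN 2 and IDPN 3, which share a title stem, lay above it. Because reads of the constant exons were divided among isoforms, these shares depend on that division, and only 24.4% of the windows of Pcdhgc3 are its own.

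Of the 19 variable gamma isoforms 15 had a log2 fold change below 0, most by modest amounts. Over all genes tested 8534 of 17650 were below 0. Pcdhgb6, the most abundant, was at 1259, 1129 and 1022 in Control and 939, 909 and 805 in IDPN, without overlap (log2 fold change −0.36, SE 0.17). Pcdhgb7 was at 609, 600.2 and 688 in Control and 596, 434 and 306 in IDPN (−0.51, SE 0.24). IDPN 1 was close to the lowest Control value of Pcdhgb7, and IDPN 3 far below it. Pcdhga7 was at 473, 349 and 343 in Control and 309.5, 301 and 323 in IDPN (−0.32, SE 0.21). The groups did not overlap, with a narrow gap between Control 3 and IDPN 3.

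Pcdhga4 was at 409.9, 356 and 461 in Control and 357, 316 and 141 in IDPN (log2 fold change −0.59, SE 0.30), with IDPN 1 above the lowest Control value. Pcdhgb2 was at 397, 344 and 346 in Control and 297, 229.9 and 225 in IDPN (−0.53, SE 0.22). Pcdhga5, one of the pair in the lower class, was at 432, 354 and 403 in Control and 272, 248 and 175 in IDPN (−0.77, SE 0.23). The groups did not overlap for Pcdhgb2 or Pcdhga5. Pcdhga1, the first gene of the cluster and the other of the pair, was at 80.0, 113 and 61.4 in Control and 32.3, 38.2 and 19.6 in IDPN (−1.50, SE 0.43), the lowest fold change of the cluster. Neither was in the lower class with edgeR or with total-count scaling. Pcdhga1 also left it without Control 1, Control 2, IDPN 1 or IDPN 3, and Pcdhga5 without Control 1 or IDPN 3.

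The median log2 fold change of the 19 variable gamma genes was −0.47, and 13 of them were below 0 under total-count scaling. All 7 gamma B genes were below 0, by 0.20 to 0.70, and 6 of the 7 stayed below 0 under total-count scaling. None of the 7 was called by DESeq2, edgeR or total-count scaling. Gamma genes share reads of the constant exons, so their signs are not independent. IDPN 3 was the lowest of the IDPN libraries for 15 of the 19. The summed normalised counts of the variable gamma genes were 5831, 5164 and 5609 in Control and 5046, 4104 and 3278 in IDPN. Those of the C-type gamma genes were 9022, 7875 and 7101 in Control and 6869, 8922 and 7145 in IDPN. The variable sums did not overlap between the groups and had a log2 ratio of −0.42, while the C-type sums overlapped and had a log2 ratio of −0.07. Total-count scaling turned the C-type ratio to 0.19 and left the variable ratio at −0.16. The separation of the variable sums depended on the size factors. In raw counts, at similar library totals, these sums were 4808, 4474 and 6304 in Control and 6097, 4088 and 3512 in IDPN. The raw groups overlapped through IDPN 1.

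**Figure D4:**
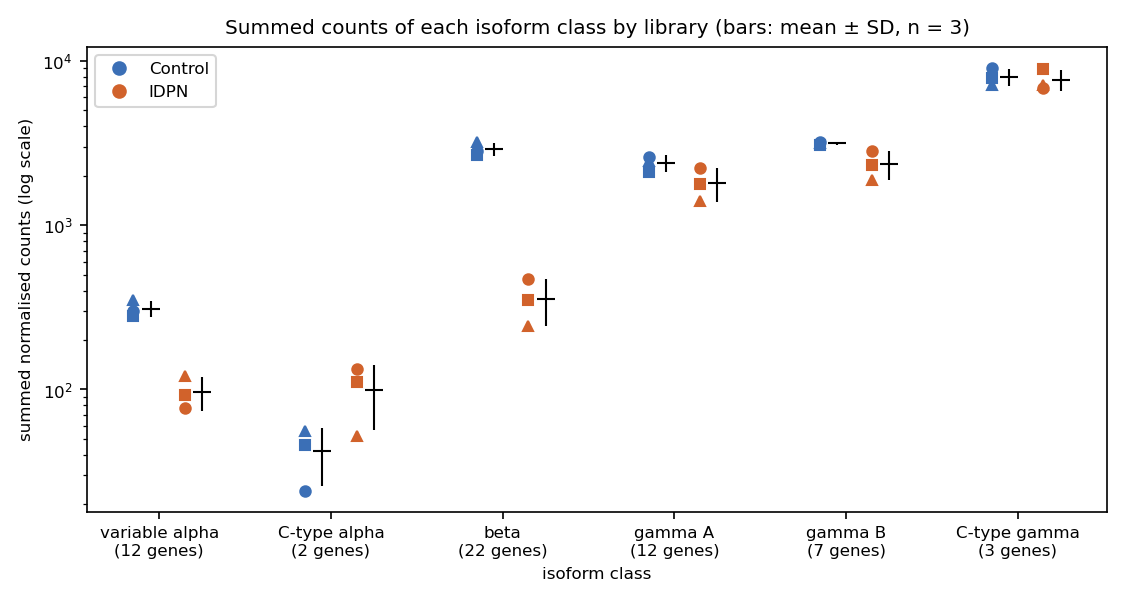
Summed normalised counts (y axis, log scale) of 6 isoform classes in each library, with circles, squares and triangles for animals 1 to 3 of Control (blue) and IDPN (orange) and mean ± SD beside them. The beta sums differ most (2900 ± 276 against 356 ± 114), the C-type gamma sums overlap, and the C-type alpha class is the one whose IDPN mean (98.7) lies above the Control mean (42.2), with IDPN 3 (52.3) inside the Control range.

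The alpha cluster was the least abundant, with a summed level of 65.5 ± 8.52 per kb in Control (SD, n = 3). Among the variable isoforms Pcdha12 was the most abundant, at 124, 103 and 131 normalised counts in Control and 40.6, 41.2 and 16.8 in IDPN (log2 fold change −1.86, SE 0.40). It stayed in the lower class by edgeR, after scaling to total counts and whichever library was left out. Pcdha11 at place 11 was at 58.2, 56.6 and 71.2 in Control and 24.0, 22.1 and 59.7 in IDPN (−0.82, SE 0.48). IDPN 3 lay within its Control range. Only 2.38% of the windows of that Pcdha11 entry are its own.

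Pcdha9 was at 55.8, 46.2 and 97.0 in Control against 0, 17.1 and 42.0 after IDPN, and its log2 fold change of −1.75 had an SE of 1.49. Pcdha2 was at 26.7, 30.0 and 18.7 in Control and 4.14, 0 and 2.80 in IDPN (−3.40, SE 0.91), and left the lower class without Control 1 or Control 2. Pcdha7 had the lowest fold change of the cluster. It was at 14.6, 39.2 and 23.1 in Control, and IDPN 2 alone had any count, at 3.01. The Control libraries held 72 raw counts of it in all and the IDPN libraries 3. Pcdha7 left the lower class without Control 2. The other 7 variable alpha entries averaged under 10 normalised counts and were not tested, and Pcdha6 had no count in any library.

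Pcdhac2, a C-type isoform known for the even spacing of serotonergic axons, was the single member in the higher class. It was at 15.8, 31.2 and 32.0 in Control and 100.1, 85.3 and 46.7 in IDPN (log2 fold change 1.55, SE 0.47, or 2.92-fold higher). The groups did not overlap, and IDPN 3 was nearest to Control. The edgeR test did not put it in the higher class, total-count scaling did, and it left the class without Control 1, Control 2, IDPN 1 or IDPN 2. Pcdhac1 was at 8.49, 15 and 24.0 in Control and 33.1, 25.1 and 5.60 in IDPN (0.42, SE 0.76), with overlap through IDPN 3. The C-type pair made up 6.99%, 13.4% and 13.1% of the alpha level per length in Control and 61.6%, 52.5% and 28.3% in IDPN, without overlap. The summed variable alpha counts were 302, 279 and 349.7 in Control and 77.0, 92.4 and 121 in IDPN.

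Position along the clusters was described by rank correlations across neighbouring genes, which share libraries and in part reads and are no replicates. Along the 21 beta genes with a mean of at least 10, the fold change was lower towards the end of the cluster (Spearman rho −0.54 between place and log2 fold change). Without Pcdhb1 rho was −0.46 over 20 genes, and leaving out IDPN 1 brought the value for the 21 genes to −0.26. Along the 19 variable gamma genes the order ran the other way, with the lowest fold changes at the start of the cluster, next to the beta genes (rho 0.38, and 0.31 to 0.51 without any single library). Pcdhga1 and Pcdhga2 (−1.13, SE 0.43, named after its value was seen) stood first there, followed by Pcdhga3 at 0.06 (SE 0.58). Between fold change and Control level rho was −0.14 for beta, −0.09 for variable gamma and 0.5 for the 5 variable alpha genes. Between fold change and the share of unique windows it was 0.18, 0.03 and −0.3. Apart from Pcdhb12 the beta genes differ little in that share, so their value says little. The part of level or read sharing in the fold changes was not tested.

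Genes in and around the clusters were examined to see how far the difference reached. Of 30 annotated genes outside the clusters but between them or within 300 kb of their outer ends, 20 were tested and 1 was called, E230025N22Rik, with 1159, 1392 and 1133 normalised counts in Control against 826, 825 and 801 after IDPN. Its log2 fold change was −0.59 (Padj = 0.0116 by DESeq2). It missed the call with edgeR (−0.58, under the fold threshold) and with total-count scaling (−0.33). The call was also lost without Control 2, IDPN 1 or IDPN 3. Over all genes tested, 3.42% were called lower by DESeq2. The median log2 fold change of the 20 was −0.11. Taf7, a general transcription factor gene between the beta and gamma clusters, was at 347, 349.7 and 475 in Control and 391, 643 and 454 in IDPN (0.34, SE 0.24, DESeq2 Padj = 0.516). Just beyond the gamma cluster, the formin gene Diaph1 had a log2 fold change of 0.18 (SE 0.25, DESeq2 Padj = 0.810) and the deacetylase gene Hdac3 one of −0.20 (SE 0.19, DESeq2 Padj = 0.684). On the side before the alpha cluster, the transporter gene Slc35a4 (0.01, SE 0.14) and the histidyl-tRNA synthetase gene Hars (−0.12, SE 0.17) were not called either.

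Of 22 other annotated genes that overlap a cluster, 5 were tested and DESeq2 called 1 lower. The background was 3.42%, and 5 genes are too few to set against it. Gm10545 lies on the reverse strand of the alpha cluster (bases 37008868 to 37020679), opposite the starts of Pcdha11 at place 11 and of Pcdha12. It was at 9.70, 10.4 and 17.8 normalised counts in Control and 0 in all IDPN libraries (DESeq2 Padj = 0.00353), which makes it at least 4.57-fold lower against a floor of 3 counts per library. It was too low to be tested with edgeR, and it had no Padj under total-count scaling or without any 1 of the Control libraries. The library kit does not mark strand, so reads of Gm10545 and of the sense genes over the same bases cannot be told apart.

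Genes known to set protocadherin promoter choice were compared next. None of the 15 architecture and cohesin genes and none of the 24 silencing and DNA methylation genes was called by DESeq2 or edgeR (5 of the 39 had an unadjusted p under 0.05 with each tool). Their median log2 fold changes were 0.20 and 0.22. For 11 of the 39 the IDPN libraries all lay above the Control libraries (background 11.1%), and for 3 all below (background 11.4%). Ctcf was at 502, 601 and 597 normalised counts in Control and 509, 428 and 659.8 in IDPN (log2 fold change −0.09, SE 0.21, DESeq2 Padj = 0.899). Among the cohesin genes, Smc3 had a log2 fold change of −0.11 (SE 0.17), Rad21 one of 0.29 (SE 0.21) and Smc1a one of −0.28 (SE 0.16). Among the silencing genes, the maintenance methyltransferase Dnmt1 had −0.10 (SE 0.16), Dnmt3a 0.28 (SE 0.18) and Smchd1, a known repressor of the clusters, 0.31 (SE 0.21). The value nearest to the Padj threshold was that of Hdac2 (0.46, SE 0.16, DESeq2 Padj = 0.0590), with a fold of 1.38 that is also under the fold threshold. Without Control 3, 3 genes were called higher, Adnp, Stag1 and Rcor1. Adnp had counts in Control 3 alone among the Control libraries.

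**Figure D5:**
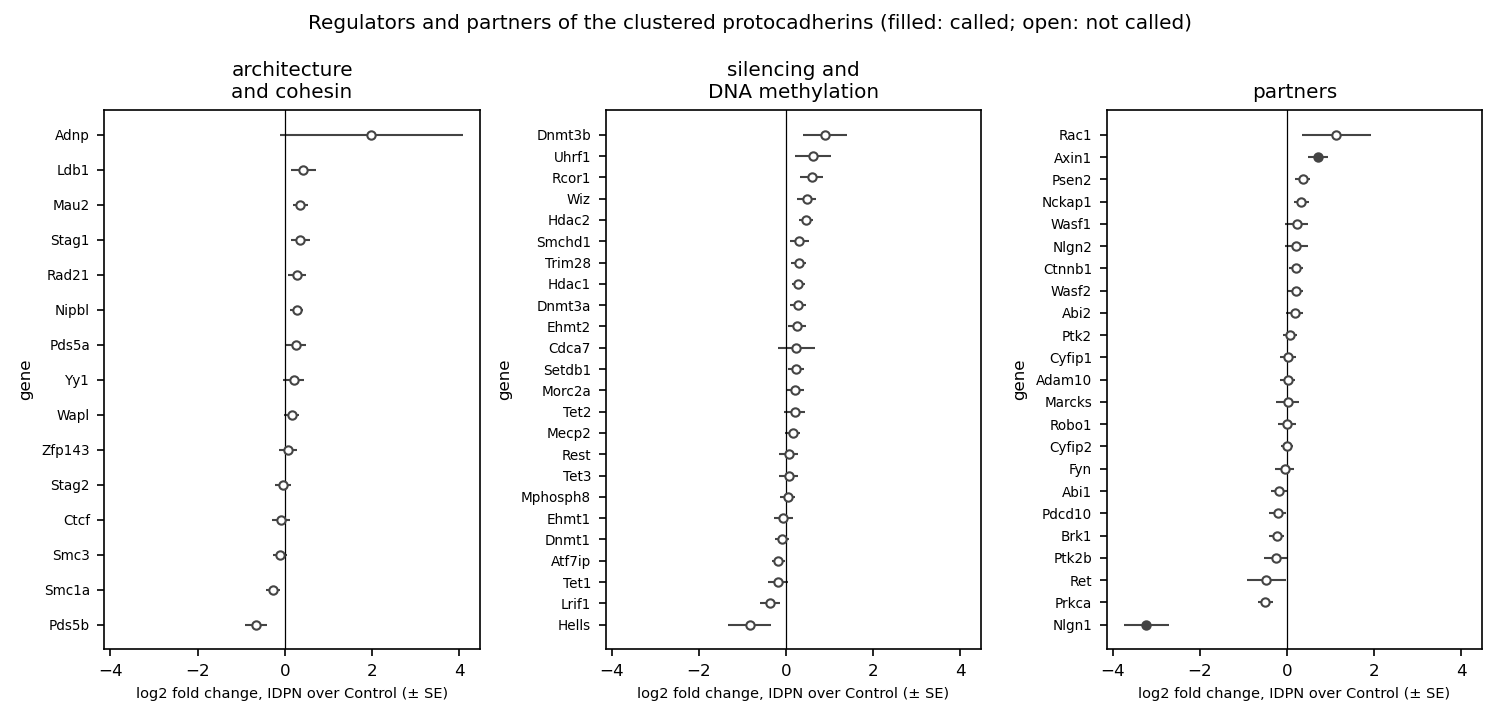
Log2 fold change of IDPN over Control (x axis, with standard error) of 15 architecture and cohesin genes, 24 silencing and DNA methylation genes and 23 partner genes, sorted within each panel. Filled points are called: none in the left and middle panels, and Nlgn1 (−3.23) and Axin1 (0.71) on the right.

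Of 23 genes for proteins that bind, cleave or signal below protocadherins, DESeq2 called 1 lower (background 3.42%) and 1 higher (background 2.32%). Counts this small do not set the list apart from all genes tested. Nlgn1, which encodes the postsynaptic adhesion protein neuroligin-1, a binding partner of gamma protocadherins, was at 53.4, 84.3 and 84.5 normalised counts in Control against 9.10, 7.03 and 7.47 after IDPN. Its log2 fold change was −3.23 (SE 0.51, Padj = 5.38e-08 by DESeq2). It was below all Control libraries in 3 of 3 IDPN libraries and was called by edgeR, after scaling to total counts and whichever library was left out. Its paralog Nlgn2 was not called (0.21, SE 0.26, DESeq2 Padj = 0.782). Axin1, which encodes a Wnt pathway scaffold that binds Pcdhgc3, was at 163, 139.7 and 175 in Control and 226, 271 and 284 in IDPN. It rose by 0.71 (SE 0.24, DESeq2 Padj = 0.0486) and was not called with edgeR (adjusted p = 0.0933) or without Control 1, Control 2 or any of the IDPN libraries.

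The remaining 21 partners were not called. The cleavage enzyme gene Adam10 (log2 fold change 0.01, SE 0.17) and the WAVE complex genes Cyfip1 (0.02, SE 0.18) and Cyfip2 (0.0003, SE 0.15) had values near 0. Prkca, whose kinase acts on gamma tails, was nearest to the Padj threshold (−0.50, SE 0.17, DESeq2 Padj = 0.0573), with a fold of 1.42 that is also under the fold threshold. Rac1 had 1212 normalised counts in Control 1 against 5933 to 14004 in the other 5 libraries.

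Nerve is one source of protocadherin mRNA, so neuron markers were read beside these values. Of 10 neuron markers 8 were tested and 3 fell by DESeq2 (background 3.42% of all genes tested). These were Nefl, Nefm and Syt1, with log2 fold changes of −0.59, −0.64 and −0.79. The edgeR test called Nefl alone, and none was called after total-count scaling. The call of Nefl was lost without Control 1, IDPN 1 or IDPN 2, that of Nefm without Control 1, Control 2, IDPN 1 or IDPN 3, and that of Syt1 without Control 1, Control 2, IDPN 2 or IDPN 3. Prph (log2 fold change 1.51, SE 0.63, DESeq2 Padj = 0.148) and Elavl4 (1.12, SE 0.96, DESeq2 Padj = 0.626) were not called, and all their IDPN values lay above all Control values. Rbfox3 (−0.64, SE 0.37, DESeq2 Padj = 0.392) was not called either, and all its IDPN values lay below all Control values. The summed level of the 10 was 4857 to 4976 normalised counts in Control and 3108 to 3366 in IDPN, nearly all of it Nefl, Nefm and Syt1. The other 7 summed to 100.4 to 125 in Control and 100.4 to 136 in IDPN, so those sums overlapped. Thy1, Nefh, Tubb3, Stmn2 and Elavl4 averaged under 10 normalised counts over all libraries. Of the supporting cell markers 1 of 10, Gjb6, fell by DESeq2 (log2 fold change −0.94, SE 0.18). It was still called after scaling to total counts and whichever library was left out, but not by edgeR. The summed level of these 10 was 308056 to 441747 in Control and 209622 to 270676 in IDPN. The part of any of these lists in the protocadherin values was not tested.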

How the data were processed

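RNA-seq libraries of 3 Control and 3 IDPN mice were prepared from 6 to 11 ng of total RNA by SMART-seq2 with 8 and 12 cycles of amplification and no molecular identifiers, so the floor of 3 counts covers counting error only. The authors aligned reads with STAR 2.5.3a to GRCm38 and estimated gene counts with RSEM 2.3.0 on GENCODE M15, versions per the submitters' processing notes. The deposited values are these expected counts (estimated counts) as whole numbers, without normalisation or filter. No separate cultures or litters are labelled, and each library is 1 animal.

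DESeq2 1.42.0 (Wald test, median-of-ratios, no covariate, R 4.3.3) was fitted to the whole table as in the study's methods, with calls at Padj under 0.05 and fold above 1.5. Alternatives were edgeR 4.0.16 (quasi-likelihood, TMM, filterByExpr), total-count scaling, TMM factors, a filter of 10 counts in 3 libraries, no independent filtering, and leaving out each library. Fold changes are unshrunken. Lengths and positions came from GENCODE M21. Windows of 76 bases, the separation of genes overlapping the clusters, and the marker sums without their leading genes were added after seeing the data. The members and lists were chosen with earlier results of these data known.

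Values in every library are given for the C-type isoforms, the 6 beta, 6 variable gamma and 4 variable alpha genes with the highest mean normalised counts, and the lowest and highest fold change of each cluster among members with a mean of at least 10. Of the other lists, called genes and up to 5 abundant ones are named, with further genes added after seeing their values, and 1 partner gene is not reported here. The code was tested on simulated data. Markers of Schwann cells, stroma, dark and transitional cells, melanocytes, macrophages, endothelium and red cells were read as well.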

Additional observations from a re-analysis of the deposited data

How the results depend on the processing

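Beta genes in the lower class numbered 17 to 19 by test and scaling and 18 to 20 without 1 library, and the log2 ratio of the beta sum ranged from −3.28 to −2.82 without 1 library. All members in the lower class numbered 20 to 26 without 1 library. With edgeR no member, and no alpha member, was called higher. The same counts were 0 to 1 without 1 library. The alpha genes called lower numbered 1 to 3 without 1 library. With edgeR or total-count scaling 0 gamma genes were called lower, and 0 to 3 without 1 library. Regulators called higher numbered 0 to 3 without 1 library. Partners called higher were 0 with edgeR or without independent filtering and 0 to 1 without 1 library. Neighbours called lower were 0 with edgeR or total-count scaling and 0 to 1 without 1 library.

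Total-count scaling moved the log2 ratio of the alpha sum from −0.85 to −0.62 and of the variable gamma sum to −0.16, and turned the gamma sum (−0.20) to 0.055 and its C-type part to 0.19. It moved the median of the variable alpha genes from −1.86 to −1.62 and of the C-type gamma genes from 0.03 to 0.27. Without 1 library the C-type gamma sum ranged from −0.19 to 0.026, the median of the C-type gamma genes from −0.15 to 0.17, and that of the variable alpha genes from −2.97 (without IDPN 3) to −1.78. The rank correlation with place ranged from −0.54 to −0.26 in beta and from 0.31 to 0.51 in gamma. No paired analysis was possible because replicate numbers were given in accession order and pair no animals. The causes were not tested. The 7 alpha genes with a mean under 10 normalised counts were not tested.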

Other observations

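Other cell types were read by their marker lists. Of 5 erythroid markers 4 rose by DESeq2, none by edgeR and 5 by total-count scaling. Over all genes tested these fits called 2.32%, 1.02% and 3.64% higher, and DESeq2 called 3.42% lower. Hba-a1, Hba-a2 and Hbb-bs had overlapping groups and lost the DESeq2 call without Control 1, Control 3 or any IDPN library. The groups of Alas2 did not overlap. The summed level of the 5 was 16166 to 36635 normalised counts in Control and 34689 to 49091 in IDPN. In the Schwann cell list 1 of 9 genes rose (Sox10) and none fell, and the lists for dark and transitional cells (1 of 7 higher) and stroma (1 of 9 higher and 1 lower) changed little by DESeq2. None of the 6 melanocyte and none of the 9 macrophage markers was called by DESeq2 or edgeR (3 of each list had an unadjusted p under 0.05 with each tool), though total-count scaling called 4 and 1 of them higher. The melanocyte markers summed to 6366 to 14355 normalised counts in Control and 14606 to 22129 in IDPN, without overlap. The macrophage sums overlapped. Of 7 endothelium markers 1 fell.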
